A study of Mus musculus with 2 samples.

Results

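The 9 genes followed here across cell classes of mouse skin encode cytokines and their modulators: the interleukin 1 (IL-1) family ligands Il1a, Il1b, Il18 and Il33, the receptor antagonist Il1rn, the decoy receptor Il1r2, the 2 ligands of the receptor CSF1R (Il34 and Csf1), and Tslp. They were the rows whose gene symbol equalled 1 of these 9 names, among 31053 genes in each library. The rule used no measured value, and all 9 members were found. The skin came from C57Bl6 mice of 8 weeks, male and female, that received sitagliptin (100 ng, carried in PBS) or PBS alone by intradermal injection, in a volume of 100 µl. Sitagliptin inhibits dipeptidyl peptidase 4, an enzyme that trims peptides at their N-terminus. The labels put 48 h next to the skin's processing, without the event it counts from. Single cells were profiled with 10x Chromium, 1 library per treatment, and the number of animals behind each library is not stated in the labels.

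With 1 library per treatment there was no replicate and no test. Levels are counts of unique molecular identifiers (UMIs, each standing for 1 captured RNA molecule), summed over the cells of a class and scaled to the total of that class, as CPM. Intervals hold at 95% and reflect counting error alone, and levels are compared between classes or libraries within a gene, not between genes. File names carry the initial of the other treatment for each library, so the libraries are called PBS-labelled and sitagliptin-labelled, and an exchange would turn each direction below. In the PBS-labelled library 5932 of 10456 barcodes were retained, with a median of 6902.5 UMIs. In the sitagliptin-labelled library 18380 of 22085 were retained, with a median of 2197 UMIs. The libraries shared 75 barcodes, of which 41 were retained in both. Class names stand for cells that resemble the named type by marker genes. In that order of libraries there were 3866 and 17749 keratinocytes, 495 and 59 fibroblasts, and 1246 and 273 immune cells. A keratinocyte group of 271 and 9677 cells could not be given a finer class by the markers.

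IL-1 alpha and IL-1 beta signal through IL1R1 and its partner IL1RAP. The antagonist encoded by Il1rn occupies that receptor without signalling, and IL1R2 binds the ligands without passing a signal on. IL-18 and IL-1 beta are made as precursors that caspase-1 cleaves, whereas IL-33 is kept in nuclei and acts on ST2 (Il1rl1) once released from damaged cells. IL-34 and CSF1 both bind CSF1R, and in mouse epidermis keratinocyte IL-34 is known to maintain Langerhans cells, the resident antigen-presenting cells. TSLP acts on a pair of CRLF2 and IL7R and is known from barrier damage and allergic skin inflammation.

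Positions are given on the mm10 build (GENCODE vM21, 1-based). Il1a (ENSMUSG00000027399, chr2:129299610-129309972) and Il1b (ENSMUSG00000027398, chr2:129364570-129371139) lie on the minus strand, 54.6 kb apart. Il1rn (ENSMUSG00000026981, chr2:24336853-24351494) lies on the plus strand of the same chromosome. Il1r2 is at chr1:40074079-40125231 (plus), Csf1 at chr3:107741048-107760469 (minus), Il34 at chr8:110741829-110805924 (minus), Il18 at chr9:50554827-50581840 (plus) and Il33 at chr19:29925114-29960718 (plus). Tslp is not placed here. A gene on the opposite strand overlaps Il1a (Gm14023), Il1b (Il1bos), Il18 (Bco2 and Tex12), Il1r2 (Gm16894), Il34 (Gm15894 and Gm15895) and Tslp (4930455D15Rik). The strand setting of the counting is not stated in the labels, so reads of these partners could not be told apart. On the same strand, Gm37347 overlaps Il1r2.

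Promoter windows of 300 bases, from 250 before to 50 after the start site, were found for 7 of the 9 members in RefSeq on GRCm38.p6. The 4 printed here belong to the IL-1 ligands Il1a, Il1b and Il18 and to Csf1, the member with the steepest step between classes, and are written 5′ to 3′ along the gene. They are Il1a (chr2:129309923-129310222, minus strand) and Il1b (chr2:129371090-129371389, minus strand), Il18 (chr9:50554450-50554749, plus strand) and Csf1 (chr3:107760420-107760719, minus strand). Capitals mark every match, on either strand and overlapping matches included, to 1 of the 3 motifs searched. The first was TATAAA, the core promoter element known as the TATA box. The second was TGANTCA, the core of sites bound by AP-1 factors. The third was a loose NF-kB pattern in which 5 free bases separate 3 G from 2 C.
Il1a: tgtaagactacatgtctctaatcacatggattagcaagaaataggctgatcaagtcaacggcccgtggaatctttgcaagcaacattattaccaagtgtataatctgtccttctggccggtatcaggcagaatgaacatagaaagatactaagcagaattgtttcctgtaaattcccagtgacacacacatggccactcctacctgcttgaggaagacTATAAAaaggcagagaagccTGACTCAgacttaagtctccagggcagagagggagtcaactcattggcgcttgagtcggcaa
Il1b: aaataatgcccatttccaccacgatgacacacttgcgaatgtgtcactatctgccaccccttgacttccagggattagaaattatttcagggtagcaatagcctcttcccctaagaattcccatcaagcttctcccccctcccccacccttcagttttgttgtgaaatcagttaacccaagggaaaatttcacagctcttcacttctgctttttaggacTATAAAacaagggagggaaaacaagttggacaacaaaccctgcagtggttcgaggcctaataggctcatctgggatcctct
Il18: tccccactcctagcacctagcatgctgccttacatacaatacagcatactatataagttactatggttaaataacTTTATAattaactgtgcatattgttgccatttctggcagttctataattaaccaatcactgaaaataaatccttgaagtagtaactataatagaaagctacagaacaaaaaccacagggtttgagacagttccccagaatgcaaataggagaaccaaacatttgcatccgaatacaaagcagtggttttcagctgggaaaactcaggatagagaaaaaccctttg
Csf1: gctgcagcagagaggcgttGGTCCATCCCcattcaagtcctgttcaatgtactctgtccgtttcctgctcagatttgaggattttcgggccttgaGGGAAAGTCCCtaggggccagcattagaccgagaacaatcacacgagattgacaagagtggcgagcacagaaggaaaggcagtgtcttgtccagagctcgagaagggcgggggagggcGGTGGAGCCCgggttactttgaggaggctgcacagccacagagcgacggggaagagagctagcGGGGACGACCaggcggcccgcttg

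Il1a and Il1b each held TATAAA once, starting 32 and 31 bases before the start site. Il1a also held TGANTCA once. Csf1 held neither, but held the NF-kB pattern 5 times, and in Il18 the only match was a TATAAA on the other strand. Of all 32851 promoter windows, 13.6% held TATAAA, 7.81% held TGANTCA and 50.8% held the NF-kB pattern. Over all their windows, 5 of the 7 members held TATAAA, 2 held TGANTCA and 2 held the NF-kB pattern. A match describes letters in these windows and is no evidence that a factor binds.

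The members were unevenly spread over the cell classes of the PBS-labelled library, where 12 classes held at least 50 cells, and several shared their highest class. Csf1 was highest in fibroblasts, Il1b in a myeloid cluster, Il33 in basal keratinocytes, and Il34, Il1rn and Il1a in suprabasal keratinocytes. Il1r2 was highest in fibroblasts and next in basal keratinocytes. Il18 was spread over fibroblasts, macrophages and a keratinocyte cluster led by Lor and Flg, and Tslp was low throughout. For Il1a, Il18, Il33 and Tslp the interval of the highest class overlapped that of the next class. The plot of levels by class shows these patterns side by side.

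**Figure D1:**
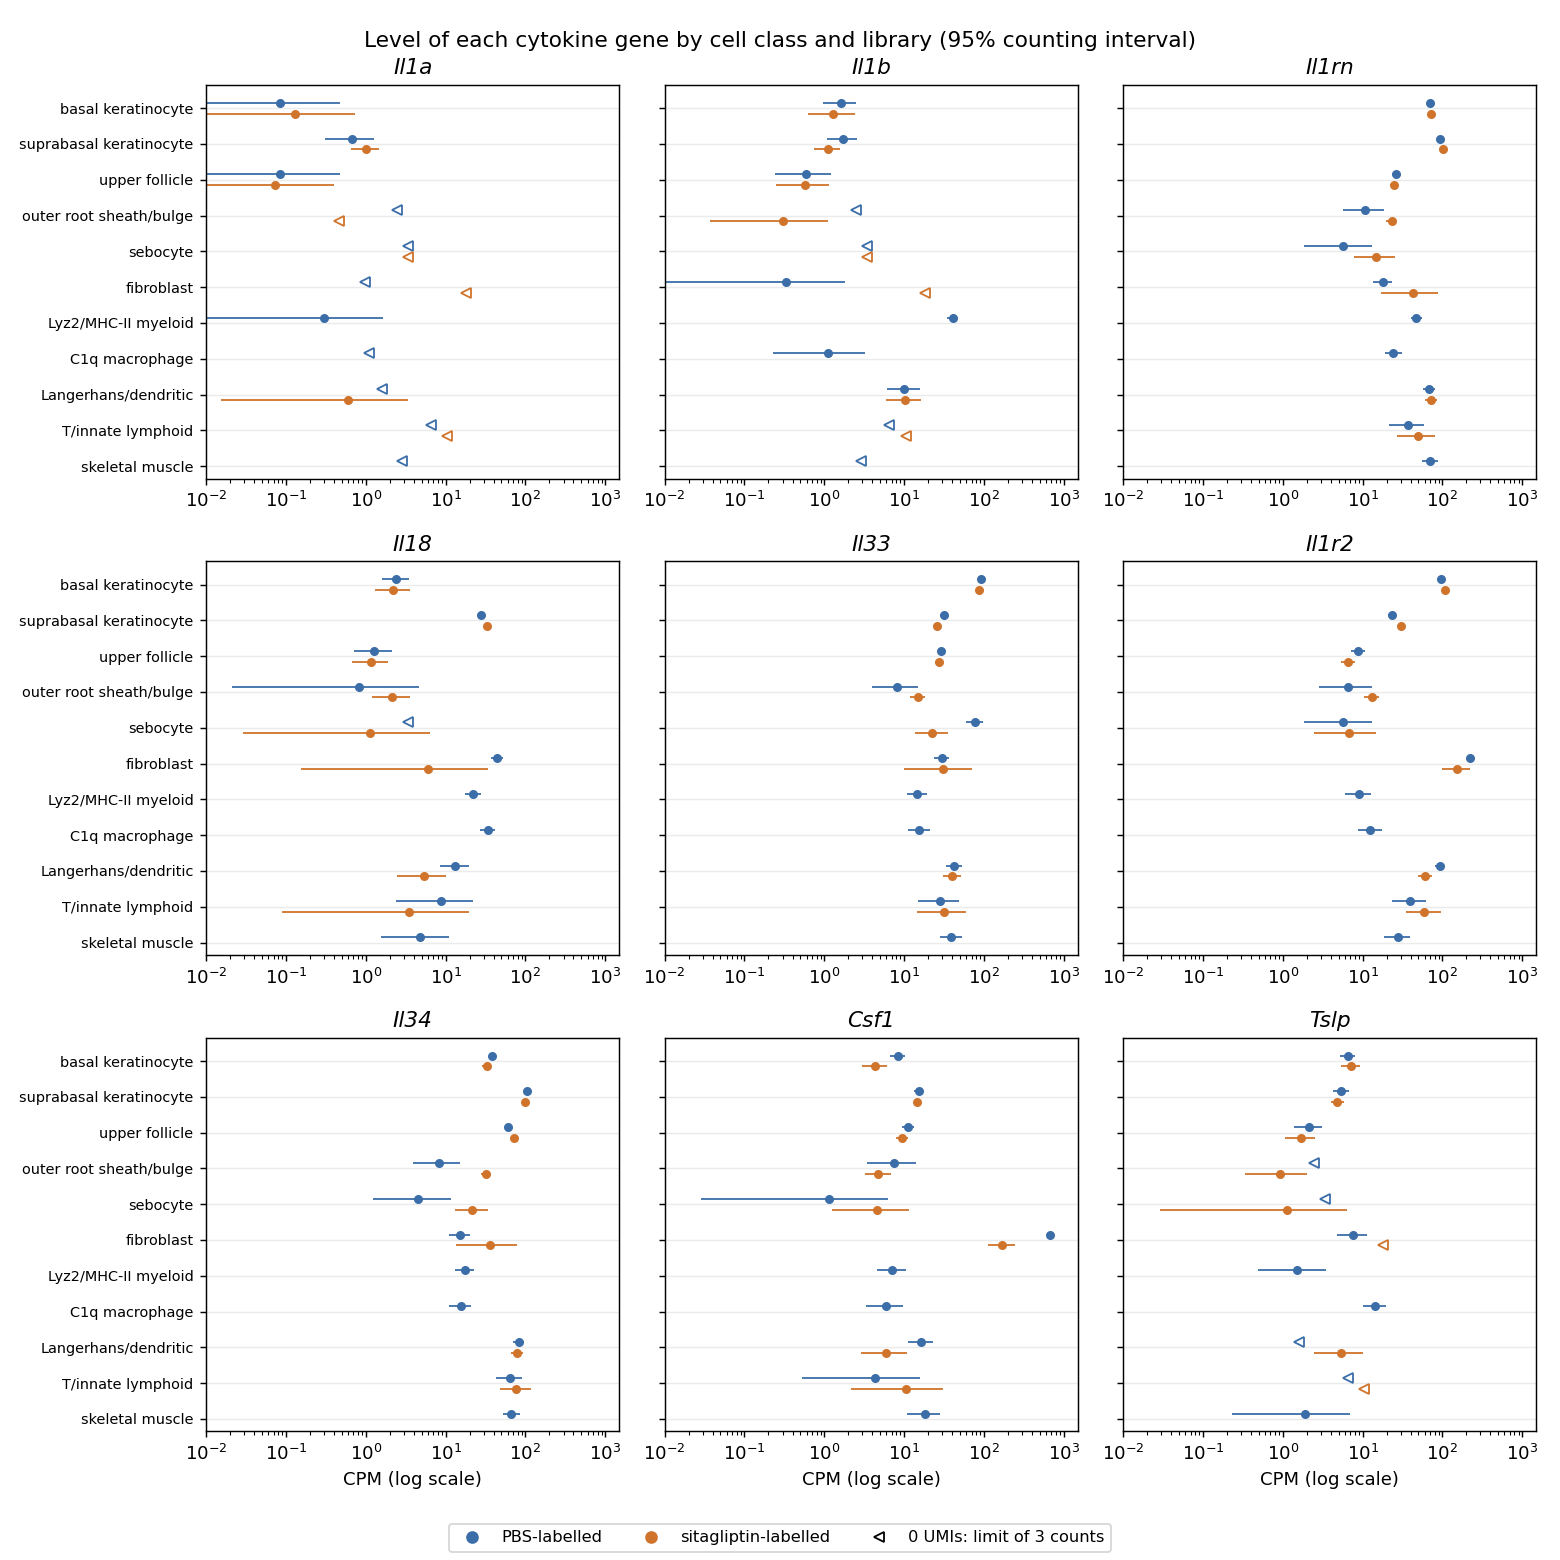
Level of each of the 9 genes (CPM, log axis) in 11 cell classes, each with at least 50 cells in the library shown; points are the PBS-labelled (blue) and sitagliptin-labelled (orange) library, bars the 95% counting interval, and open triangles the limit of 3 counts where no UMI was found. Csf1 stands out in fibroblasts (678 CPM in the PBS-labelled library) and Il1b in the Lyz2-rich myeloid cells (40.5 CPM), while Il33, Il34 and Il1rn spread over the keratinocyte classes.

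Il1a, the IL-1 ligand known to be stored in keratinocytes, was barely captured. Keratinocytes held 11 UMIs of it in the PBS-labelled library and 31 in the sitagliptin-labelled library, at 0.254 CPM (0.127 to 0.454) and 0.380 CPM (0.258 to 0.539). Most of these UMIs lay in suprabasal cells, with 9 and 26. Within those, 6 and 20 lay in a single cluster led by Lor, Crct1, Lce1m, Flg2 and Flg, genes of the granular layer and cornified envelope. That cluster had 4.84 CPM (1.78 to 10.5) and 5.45 CPM (3.33 to 8.41) of Il1a, above the upper bounds of the basal and the Krt16-led and Krt77-led suprabasal clusters. The UMIs lay in few cells, and 1 keratinocyte held 4 of the 11 and 1 held 6 of the 31. Fibroblasts of the PBS-labelled library had 0 UMIs, which allows up to 0.985 CPM (3 counts).

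Il1b, the inflammasome-dependent ligand, belonged mostly to 1 myeloid cluster. That cluster was led by Lyz2, Retnla, Ccr2 and the MHC class II genes H2-Aa, H2-Ab1 and Cd74, and it stayed without a finer class because its mean marker score for dendritic cells, 1.29, was over 0.6 of that for macrophages, 2.07. Its 586 cells in the PBS-labelled library held 136 Il1b UMIs, or 40.5 CPM (34.0 to 48.0), in 12.3% of cells. The 465 macrophages led by C1qa, C1qc, Lyve1 and Folr2 held 3 UMIs, or 1.11 CPM (0.228 to 3.24), in 0.430% of cells, at a similar median depth (4194 and 4550 UMIs per cell). The intervals are far apart, so these myeloid populations differed in Il1b beyond counting error. After thinning each cell to 1000 UMIs, the share with a UMI was 4.78% in the Lyz2-rich cells and 0 of 465 cells in the macrophages, a limit that concerns cells with a UMI and not cells expressing the gene. Per 1000 UMIs of Lyz2, a lysozyme gene of both, the Lyz2-rich cells had 7.48 Il1b UMIs (6.28 to 8.85) and the macrophages 0.422 (0.0871 to 1.23). Langerhans or dendritic cells had 10.0 CPM (6.05 to 15.7) in the PBS-labelled and 10.2 CPM (5.94 to 16.3) in the sitagliptin-labelled library, but in the latter 1 cell held 14 of the 17 UMIs.

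Keratinocytes had little Il1b, at 1.20 CPM (0.895 to 1.57) and 0.870 CPM (0.679 to 1.10), and the 52 UMIs of the PBS-labelled library lay in 47 cells. Over all keratinocytes of the 2 libraries, Lyz2 was at 17.6 and 1.43 CPM. Basal keratinocytes of the PBS-labelled library had 73.4 Il1b UMIs (44.2 to 115) per 1000 Lyz2 UMIs, above the 7.48 of the Lyz2-rich myeloid cells. With clusters found separately in each library, the highest Il1b level moved from the myeloid cluster to the dendritic or Langerhans class.

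Il18, the other caspase-1 substrate, showed a steep step within the epidermis. Basal, dividing basal, Krt16-led and Krt77-led suprabasal clusters of the PBS-labelled library had 1.95, 2.83, 2.15 and 3.41 CPM, with overlapping intervals. A suprabasal cluster led by Hrnr and Cdsn had 18.6 CPM (8.93 to 34.2), and the granular cluster led by Lor and Flg had 266 CPM (238 to 297), from 330 of the 418 keratinocyte UMIs. The sitagliptin-labelled library had the same order, with 22.8 CPM (19.3 to 26.7) in the Hrnr-led and 178 CPM (164 to 192) in the Lor-led cluster. The UMIs were also bunched within cells. In the PBS-labelled library 13 keratinocytes with at least 5 UMIs held 65.1% of the total and 1 cell held 50, and in the sitagliptin-labelled library 45 such cells held 46.7%.

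Outside the epidermis, Il18 was at 44.3 CPM (37.2 to 52.5) in fibroblasts, 33.6 CPM (27.1 to 41.3) in C1q macrophages and 22.1 CPM (17.3 to 27.7) in the Lyz2-rich cells of the PBS-labelled library. Here the UMIs were spread, with no cell above 3 UMIs. Neighbours in this order overlap in their intervals. Upper follicle keratinocytes, at 1.28 CPM (0.714 to 2.10), lay below all of them.

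Il33, the nuclear alarmin, was a gene of the basal layer. Basal keratinocytes had 92.2 CPM (86.8 to 97.8) in the PBS-labelled library, against 31.7 CPM (28.8 to 34.9) in suprabasal, 29.4 CPM (26.4 to 32.7) in upper follicle and 8.24 CPM (3.95 to 15.1) in cells of the outer root sheath or bulge. In the sitagliptin-labelled library the values were 86.5, 25.6, 27.3 and 14.8 CPM. Suprabasal and upper follicle cells did not differ beyond their intervals in either library, and basal cells lay above both. Among epidermal clusters the level was 109 CPM (101 to 118) in non-dividing basal, 73.5 CPM (66.6 to 80.9) in dividing basal, 40.4 CPM (36.1 to 45) in Krt16-led 16.5 CPM (12.7 to 21.1) in Krt77-led and 13.7 CPM (7.99 to 22.0) in Lor-led cells. The Hrnr-led cluster, with 30 cells in that library, was at 54.0 CPM (36.2 to 77.5), above both of the latter. Sebocytes, the lipid cells of the sebaceous gland, had 76.3 CPM (59.1 to 96.9), which overlaps the basal value. Most of it came from a cluster of 34 cells led by Akr1c18, Igfbp2 and Mgst1, with 123 CPM (92.1 to 161).

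Il1rn, the antagonist, was higher in the Krt77-led and Lor-led clusters than in non-dividing basal cells, by a smaller factor. Its level was 61.8 CPM (55.8 to 68.4) in non-dividing basal, 81.1 CPM (74.9 to 87.6) in Krt16-led, 109 CPM (98.4 to 120) in Krt77-led and 119 CPM (100 to 139) in Lor-led cells of the PBS-labelled library. The sitagliptin-labelled library gave 73.3, 81.8, 109 and 134 CPM. Dividing basal cells of the PBS-labelled library had 3.58 Il1rn UMIs (3.26 to 3.93) per 1000 Krt14 and Krt10 UMIs. Non-dividing basal cells had 2.62 (2.36 to 2.90) and Krt16-led cells 3.57 (3.30 to 3.86). In the sitagliptin-labelled library dividing and non-dividing basal cells, at 3.07 (2.71 to 3.46) and 2.82 (2.50 to 3.17), overlapped. Follicle classes were lower, with 26.2 CPM (23.3 to 29.3) in upper follicle and 10.7 CPM (5.70 to 18.3) in cells of the outer root sheath or bulge. In suprabasal cells 53.7% of the PBS-labelled and 46.6% of the sitagliptin-labelled cells held a UMI, and after thinning to 1000 UMIs the shares were 9.45% and 9.66%. Median depths there were 9915 and 5686 UMIs. Skeletal muscle cells, which should lack the gene, had a UMI in 33.0% of cells and 5.22% after thinning, at a median of 7691 UMIs.

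Il1r2, the decoy receptor, was highest in fibroblasts at 222 CPM (205 to 239), with a UMI in 56.6% of cells. Basal keratinocytes followed at 97.2 CPM (91.6 to 103) and Langerhans or dendritic cells at 93.6 CPM (80.3 to 108), which overlap. Within the epidermis it was lowest in the Krt77-led cluster. Non-dividing basal cells had 133 CPM (124 to 143), dividing basal cells 57.9 CPM (51.8 to 64.5), Krt16-led cells 26.4 CPM (23.0 to 30.3), Krt77-led cells 11 CPM (7.94 to 14.9) and Lor-led cells 40.3 CPM (29.9 to 53.2). The last 2 intervals do not overlap, and in the sitagliptin-labelled library, at 18.2 CPM (15.3 to 21.5) and 45.5 CPM (38.8 to 52.9), they do not either. Il1r2 was itself among the 10 leading genes of the non-dividing basal cluster, although it was kept out of the genes used to cluster.

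**Figure D2:**
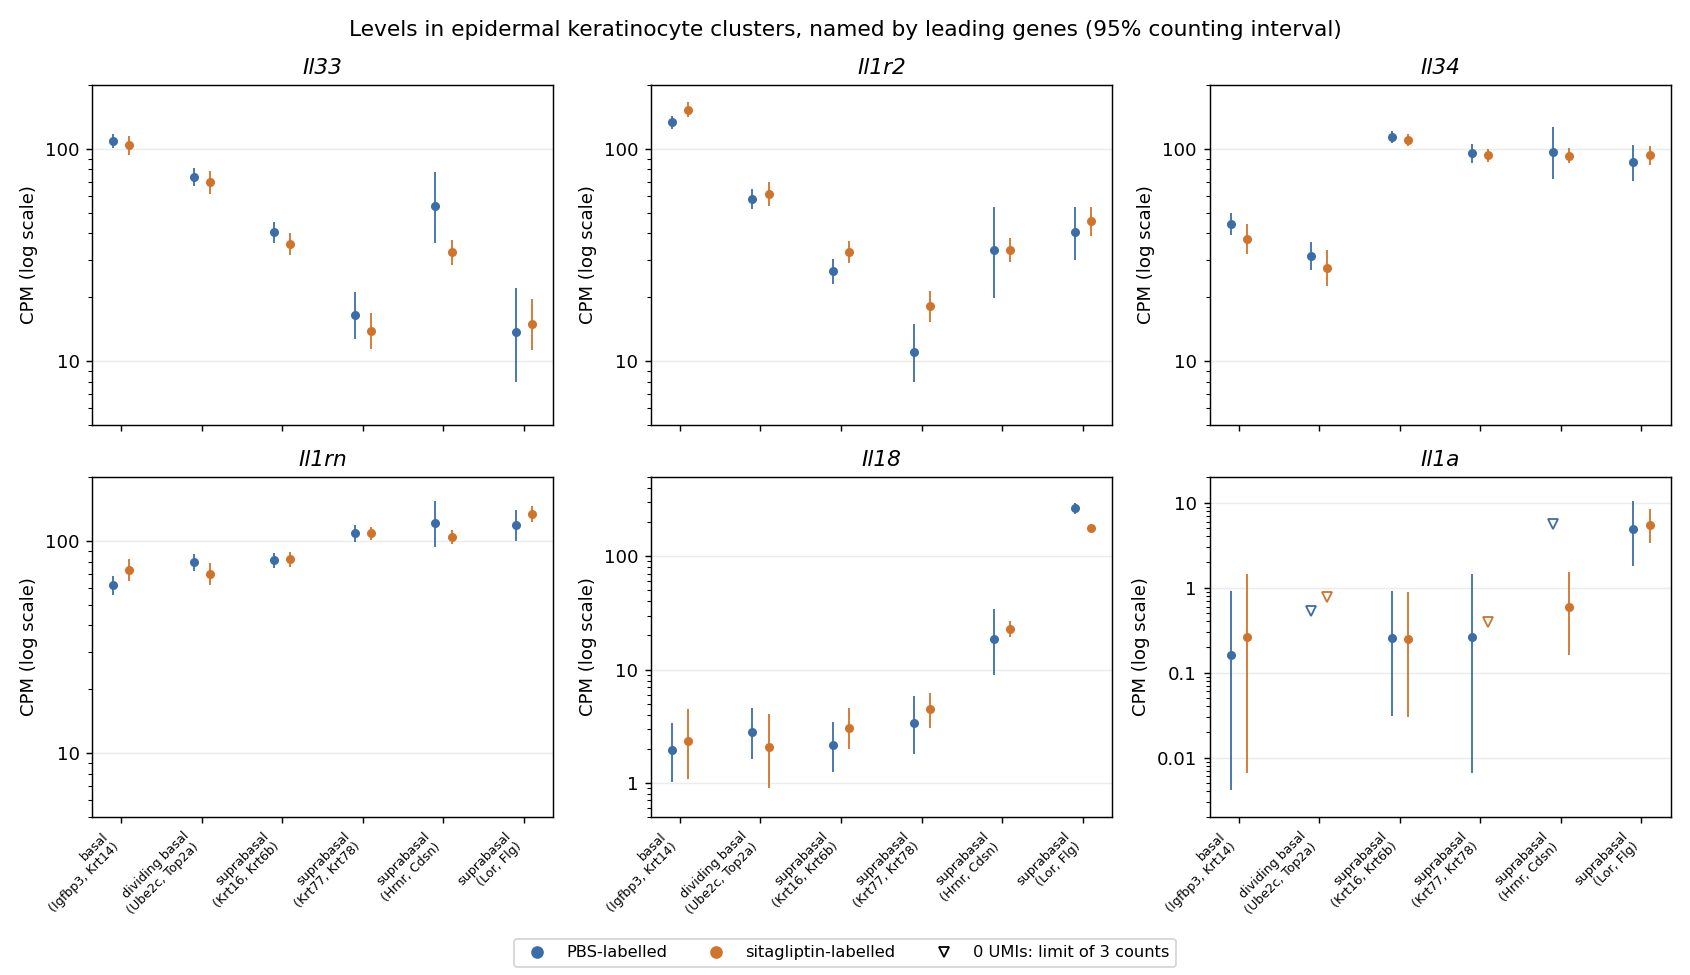
Levels (CPM, log axis) of 6 genes in 6 epidermal keratinocyte clusters, named by their leading genes. Their order was chosen from those genes and is not a measured depth. In the PBS-labelled library Krt14 and Krt10 were at 2211 and 26113 CPM in Krt77-led cells. In Hrnr-led cells, placed after them, they were at 6199 and 15525 CPM. Points are the 2 libraries, bars the 95% counting interval, and open triangles the limit of 3 counts where no UMI was found. Il33 and Il1r2 are highest in basal cells (109 and 133 CPM in the PBS-labelled library), Il34 in Krt16-led suprabasal cells (113 CPM), and Il18 in Lor-led cells (266 CPM).

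The 2 CSF1R ligands occupied different compartments. Il34 was at 105 CPM (99.8 to 111) in suprabasal, 60.8 CPM (56.4 to 65.4) in upper follicle, 38.1 CPM (34.6 to 41.8) in basal and 8.24 CPM (3.95 to 15.1) in outer root sheath or bulge keratinocytes of the PBS-labelled library. The sitagliptin-labelled values were 98.4, 72.4, 32.6 and 31.9 CPM. Non-dividing basal cells had 44.3 CPM (39.2 to 49.8) and Krt16-led suprabasal cells 113 CPM (106 to 121). The Krt77-led, Hrnr-led and Lor-led clusters had 95.2, 96.8 and 86.3 CPM. Csf1, in contrast, was at 678 CPM (649 to 708) in fibroblasts, 37.4-fold above the next class, and at 11.6 CPM (10.6 to 12.6) in keratinocytes. A Csf1 UMI was found in 77.6% of fibroblasts and 10.8% of keratinocytes, at median depths of 5445 and 8505 UMIs, and after thinning in 41.2% and 1.01%. In skeletal muscle cells, at a median depth of 7691 UMIs, the shares were 13.9% and 0.870%, and the keratinocyte share did not stand clear of them. The muscle cells also held Krt10 at 11503 CPM, so this comparison cannot give a background for keratinocytes. Per 1000 UMIs of Col1a1, Col3a1 and Dcn, Csf1 was at 415 (380 to 453) in keratinocytes of that library. It was at 90.9 (54.7 to 142) in muscle and 32.6 (31.3 to 34.1) in fibroblasts. The part of background in keratinocyte Csf1 was not tested.

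Tslp was rare in every class and bunched in few keratinocytes. Basal cells had 6.53 CPM (5.15 to 8.16) and 7.17 CPM (5.40 to 9.33), suprabasal cells 5.41 CPM (4.24 to 6.80) and 4.85 CPM (4.05 to 5.78), and upper follicle cells 2.13 CPM (1.38 to 3.14) and 1.67 CPM (1.06 to 2.51), in the PBS-labelled and sitagliptin-labelled library. In the PBS-labelled library 1 keratinocyte held 27 of 181 Tslp UMIs, and in the sitagliptin-labelled library 1 held 63 of 294. Cells with at least 5 UMIs, 7 and 5 in number, held 39.8% and 29.9% of the total. C1q macrophages had 14.4 CPM (10.2 to 19.7), above the basal interval, and there 39 UMIs lay in 38 cells, with no cell above 2.

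Keratin UMIs were present in every class. Krt10, a keratin gene of suprabasal cells, was at 1914 to 11503 CPM in immune classes and muscle of the PBS-labelled library, against 7837 CPM in keratinocytes. The number of Il34 UMIs per 1000 Krt14 and Krt10 UMIs was 3.74 (3.61 to 3.88) in keratinocytes. It was 4.01 (3.05 to 5.18) in Lyz2-rich myeloid cells, 3.04 (2.19 to 4.12) in C1q macrophages, 4.85 (3.25 to 6.97) in T or innate lymphoid cells, 3.91 (3.04 to 4.93) in muscle and 3.71 (2.71 to 4.94) in fibroblasts. The intervals of these classes all include the keratinocyte value, while among keratinocyte classes the ratio ran from 1.09 in sebocytes and 1.66 in basal to 7.45 in upper follicle cells. Whether Il34 UMIs outside keratinocytes came from those cells was not tested. Langerhans or dendritic cells, at 4.90 (4.16 to 5.74), had an interval just above the keratinocyte value and held keratin at a keratinocyte-like level, with 10138 CPM of Krt10 and 6570 CPM of Krt14. The part of keratinocyte RNA in their Il34 and Il1rn levels was not tested. Il1r2 in these cells, at 5.60 (4.81 to 6.49) per 1000, compared with 4.25 (4.01 to 4.50) in basal keratinocytes. Basal cells differed in keratin, with 1009 CPM of Krt10 and 21868 CPM of Krt14. In the suprabasal clusters of the PBS-labelled library the Il1r2 ratio was lower. It ran from 0.389 (0.280 to 0.526) in Krt77-led to 1.57 (1.16 to 2.07) in Lor-led cells. The part of keratinocyte RNA in this Il1r2 level was not tested either.

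Il1rn kept the keratin ratio in T cells, at 2.84 (1.66 to 4.55), and in muscle, at 4.13 (3.24 to 5.18), against 3.45 (3.33 to 3.59) in keratinocytes. It exceeded that ratio in Lyz2-rich myeloid cells, at 11 (9.35 to 12.8), and less so in C1q macrophages, at 4.78 (3.70 to 6.09). The ratio of Il18 was 0.528 (0.479 to 0.581) in keratinocytes, 5.12 (4.02 to 6.42) in Lyz2-rich cells, 6.60 (5.31 to 8.10) in C1q macrophages and 10.9 (9.12 to 12.9) in fibroblasts. For Tslp it was 0.229 (0.197 to 0.265) in keratinocytes against 2.83 (2.01 to 3.87) in C1q macrophages and 1.85 (1.17 to 2.78) in fibroblasts. The keratinocyte values are means over unlike cells. In the Lor-led cluster the ratio of Il18 was 10.3 (9.26 to 11.5), like that of fibroblasts and above both myeloid classes. In the other epidermal clusters of the PBS-labelled library it was 0.0827 to 0.857. The keratins behind these ratios were unlike, with Krt10 and Krt14 at 24175 and 1561 CPM in the Lor-led cluster. They were at 2008 and 2066 CPM in fibroblasts, 1914 and 2399 CPM in Lyz2-rich cells and 2570 and 2524 CPM in C1q macrophages. For Tslp the epidermal clusters ran from 0 UMIs in the Lor-led to 0.60 (0.241 to 1.24) in the Hrnr-led cluster, below the C1q macrophages.

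**Figure D3:**
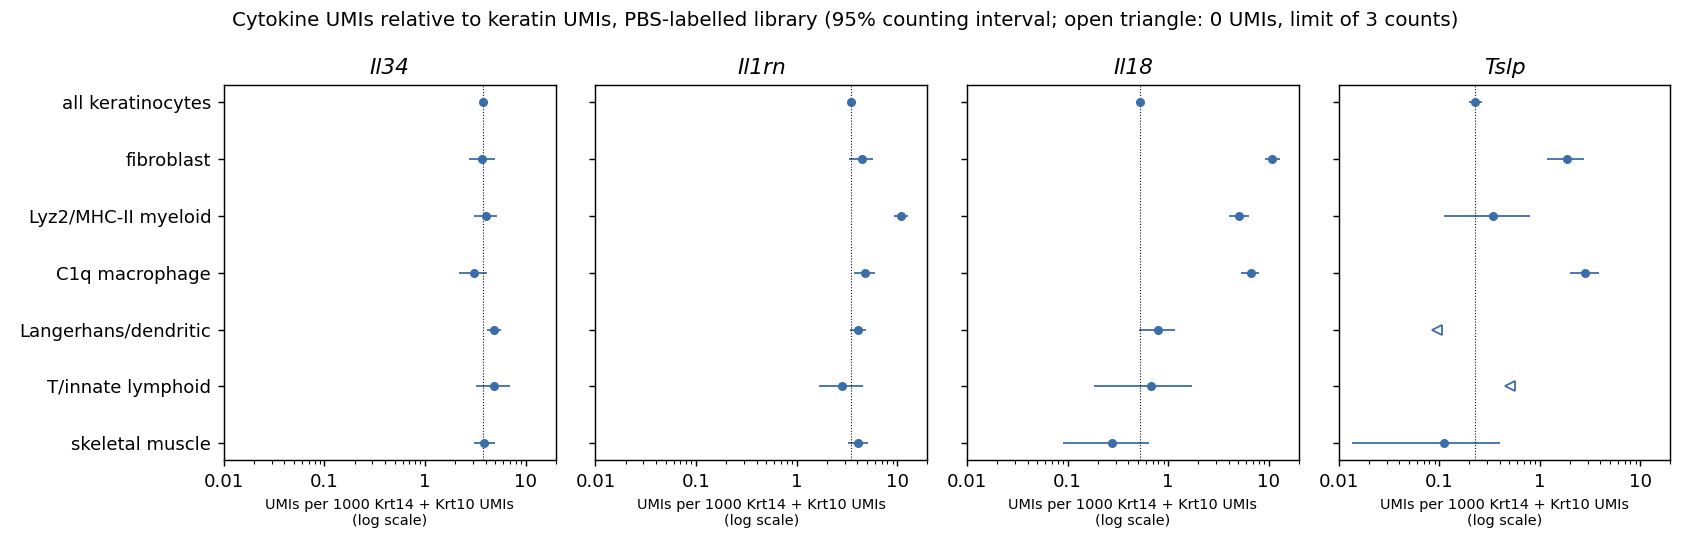
UMIs of Il34, Il1rn, Il18 and Tslp per 1000 UMIs of Krt14 and Krt10 in 7 classes of the PBS-labelled library (log axis); points have 95% counting intervals, open triangles mark the limit of 3 counts where no UMI was found, and the dotted line is the keratinocyte value. Il34 lies between 3.04 and 4.90 in the 7 classes shown, whereas Il18 lies above its keratinocyte value of 0.528 in fibroblasts (10.9) and in both myeloid classes (5.12 and 6.60).

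Levels of the receptors were read in the same classes. Csf1r was at 611 CPM (582 to 641) in C1q macrophages, 277 CPM (259 to 295) in Lyz2-rich myeloid cells and 151 CPM (134 to 170) in Langerhans or dendritic cells of the PBS-labelled library, and at 2.60 CPM in keratinocytes. Il1r1, the signalling receptor of IL-1 alpha and beta, was at 112 CPM (100 to 125) in fibroblasts, the same class that led for the decoy Il1r2, and at 22.7 CPM (20.1 to 25.6) in basal keratinocytes. Il1rl1, the IL-33 receptor, was highest in the Lyz2-rich myeloid cells, at 33.7 CPM (27.8 to 40.5), and C1q macrophages had 4.80 CPM (2.56 to 8.21). Il1rap, the shared partner chain, was at 17.1 CPM (14.8 to 19.7) in basal keratinocytes. Il18r1 was at 39.3 CPM (23.3 to 62.1) in T or innate lymphoid cells and at 16.7 CPM (14.4 to 19.2) in upper follicle keratinocytes. Il18rap, its partner chain, had 3 UMIs in those T or innate lymphoid cells and 1 in upper follicle keratinocytes. Of the TSLP receptor chains, Crlf2 was at 73.9 CPM (64.0 to 84.8) in C1q macrophages and 62.3 CPM (54.2 to 71.4) in Lyz2-rich cells, and Il7r at 53.4 CPM (43.5 to 64.9) in Langerhans or dendritic cells.

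Between the libraries, none of the members reached a 2-fold difference in the 3 largest named keratinocyte classes. A gene was counted when it had at least 20 UMIs over both libraries and its levels were at least 2-fold apart. In all keratinocytes 0 of 9 members passed, while 6.32% of 14632 genes did. The counts were 0 of 8 members in basal cells (3.53% of all genes), 0 of 9 in suprabasal cells (4.9%) and 0 of 7 in upper follicle cells (2.84%). Ratios, sitagliptin-labelled over PBS-labelled, ran from 0.518 to 1.10 in basal, 0.650 to 1.49 in suprabasal and 0.756 to 1.19 in upper follicle cells. The median log2 ratio of the members was -0.08, -0.06 and -0.10, beside 0.01, 0.03 and -0.01 over all genes. So few members against such a background leave these counts without a result of their own.

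Smaller shifts exceeded counting error in some members. Il33 in all keratinocytes was at 48.9 and 34.0 CPM, a ratio of 0.696 (0.657 to 0.737). Within classes its ratio was 0.939 (0.851 to 1.03) in basal, 0.806 (0.713 to 0.912) in suprabasal and 0.930 (0.801 to 1.08) in upper follicle cells. It was 0.825 (0.704 to 0.971) in keratinocytes without a finer class, 0.297 in sebocytes and 1.80 (0.935 to 3.86) in outer root sheath or bulge cells. Basal cells were 1215 of 3866 keratinocytes in the PBS-labelled and 1382 of 17749 in the sitagliptin-labelled library. Those totals include the 271 and 9677 cells without a finer class. The part of the make-up in the Il33 difference was not tested. Il1r2 in suprabasal cells was at 23.6 and 30.5 CPM, a ratio of 1.29 (1.13 to 1.47). Csf1 in basal cells, at 8.31 and 4.30 CPM, had the ratio nearest to the threshold, 0.518 (0.338 to 0.775). Fibroblast markers moved with it: 4 of 4 had UMIs in basal cells of both libraries, summing to 42.7 CPM in the PBS-labelled and 3.78 CPM in the sitagliptin-labelled library. Per 1000 UMIs of Col1a1, Col3a1 and Dcn, basal cells had 261 Csf1 UMIs (212 to 318) and 1737 (1196 to 2439). Fibroblasts of the PBS-labelled library had 32.6 (31.3 to 34.1). The part of fibroblast RNA in the Csf1 difference was not tested. Il34 in upper follicle cells was at 60.8 and 72.4 CPM, a ratio of 1.19 (1.08 to 1.31).

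Il18 in suprabasal cells had a ratio of 1.20 (1.07 to 1.36), with 27.4 and 33.0 CPM. The Lor-led cluster that carried most of it had 266 and 178 CPM, the opposite direction, and it was 71 of 1069 suprabasal cells in the PBS-labelled and 283 of 2939 in the sitagliptin-labelled library. With clusters weighted equally the suprabasal ratio was 0.716. The Il18 ratio was 1.35 without the 1 cell of each library that held most of it. Leaving out the cell with most Tslp in each library, likewise chosen after seeing the data, changed the Tslp ratio in suprabasal cells from 0.897 to 0.717. The Il1b ratio in all keratinocytes, 0.726 (0.50 to 1.06), stood beside a summed level of 7 macrophage and MHC class II genes of 122 and 33.9 CPM in those cells. All 7 had UMIs in both libraries, and their part was not tested.

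**Figure D4:**
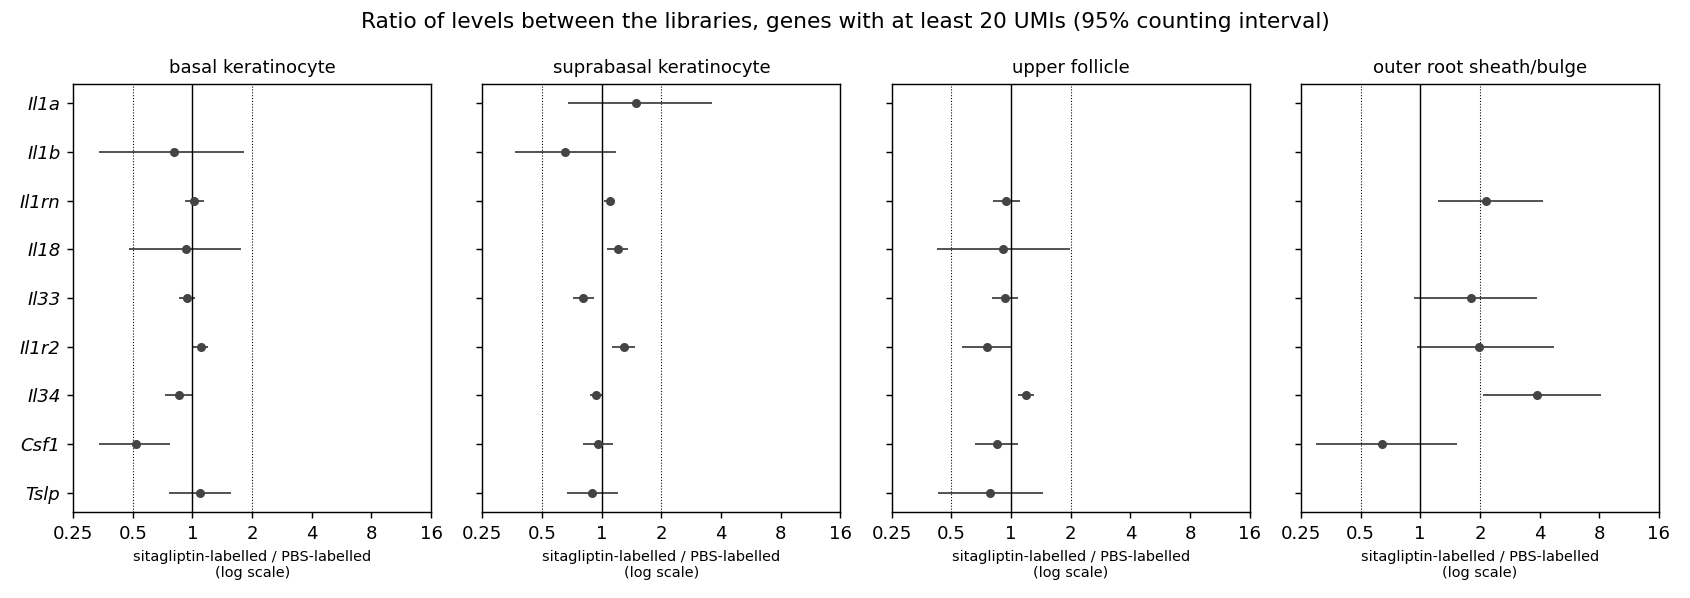
Ratio of levels, sitagliptin-labelled over PBS-labelled (log axis), for the members with at least 20 UMIs in 4 keratinocyte classes; bars are 95% counting intervals and dotted lines mark 2-fold. In basal, suprabasal and upper follicle cells every point lies within the 2-fold lines, whereas Il34 (3.87) and Il1rn (2.16) lie beyond them in the cells of the outer root sheath or bulge.

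Outer root sheath or bulge cells, the follicle compartment that includes stem cells, differed from the larger keratinocyte classes in their counts. There 2 of 5 members passed, where 6.89% of 11128 genes did. Il34 had 10 UMIs in 217 cells (8.24 CPM, 3.95 to 15.1) and 207 UMIs in 1547 cells (31.9 CPM, 27.7 to 36.5), a ratio of 3.87 (2.06 to 8.19). Il1rn was at 10.7 CPM (5.70 to 18.3) and 23.1 CPM (19.6 to 27.1), a ratio of 2.16 (1.22 to 4.15). After thinning each cell to 1000 UMIs the Il1rn ratio was 1.05, which ends that call, and at Leiden resolution 0.5 it was 12.4. Il1r2, at 6.59 and 13.1 CPM, had a ratio of 1.99 (0.964 to 4.75), whose interval includes 1. Krt10, a suprabasal keratin, moved with them, at 2094 and 3595 CPM, and the Il34 ratio to Krt14 and Krt10 was 1.51 (0.723 to 2.77) and 3.76 (3.27 to 4.31) per 1000. The make-up of the class also differed: a cluster led by Krt75 and Wfdc3 gave 17 of 217 and 299 of 1547 cells, with Il34 at 7.41 CPM (0.897 to 26.8) and 44.2 CPM (36.7 to 52.7). In the largest cluster of the class, led by Krt24 and Sfrp1, Il34 was at 4.62 CPM (0.953 to 13.5) and 22.6 CPM (17.5 to 28.7), intervals that do not overlap. In the remaining cluster, led by Ramp1 and Sncg with 59 and 302 cells, it was at 17.0 CPM (5.51 to 39.6) and 23.5 CPM (13.9 to 37.2), which overlap. The part of keratin background and of the make-up was not tested.

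In sebocytes 2 of 2 members passed, where 6.93% of all genes did: Il33 was at 76.3 and 22.7 CPM (ratio 0.297, 0.171 to 0.496) and Il34 was at 4.56 and 21.5 CPM (ratio 4.73, 1.57 to 19.1). The Akr1c18-led cluster was 34 of 65 sebocytes in the PBS-labelled and 35 of 159 in the sitagliptin-labelled library, and within it Il33 was at 123 and 37.9 CPM (18.2 to 69.8). Krt10 in sebocytes was at 502 and 2318 CPM. In keratinocytes without a finer class, 2 of 8 members passed (7.75% of all genes), Il18 with a ratio of 4.89 (1.86 to 18.2) from 4 and 123 UMIs and Tslp with a ratio of 2.17 (0.957 to 6.10) from 6 and 82 UMIs. The libraries filled this group with different clusters: its 3 largest in the sitagliptin-labelled library held 4124, 3469 and 1417 cells there and 12, 37 and 9 in the PBS-labelled one.

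In fibroblasts 5 of 7 members were at least 2-fold apart, but so were 36.5% of all genes. Csf1 was at 678 CPM (649 to 708) and 170 CPM (113 to 246), a ratio of 0.251 (0.166 to 0.364), with 28 UMIs in 7 of the 59 sitagliptin-labelled cells. The defining collagen gene Col1a1 was also lower, at 5566 and 2188 CPM, while Krt14 was at 2066 and 9457 CPM. Per 1000 UMIs of Col1a1, Col3a1 and Dcn, Csf1 was at 32.6 (31.3 to 34.1) and 26.5 (17.6 to 38.3), which overlap. Il1r2 was at 222 and 152 CPM, a ratio of 0.686 (0.440 to 1.02). Per 1000 of the same UMIs it was at 10.7 (9.89 to 11.5) and 23.7 (15.3 to 34.9), the other direction and without overlap. Keratinocytes of the sitagliptin-labelled library had Il1r2 at 33.2 CPM and at 3303 (3180 to 3430) per 1000 of these UMIs. The part of keratinocyte RNA in the fibroblast Il1r2 values was not tested. Il18 had 135 and 1 UMIs and Tslp 23 and 0, while Il1rn and Il34 had ratios of 2.36 (0.905 to 5.19) and 2.41 (0.843 to 5.67) beside the higher keratin. In Langerhans or dendritic cells 2 of 7 members passed (5.86% of all genes), with Csf1 at 16.4 and 5.99 CPM (ratio 0.366, 0.160 to 0.766) and Il18 at 13.2 and 5.40 CPM (ratio 0.408, 0.168 to 0.904). The markers Cd74 and Cd207 were at 2805 and 279 CPM in the PBS-labelled and 1104 and 97.7 CPM in the sitagliptin-labelled library. In T or innate lymphoid cells 0 of 4 members passed (14.2% of all genes). The Lyz2-rich myeloid cells and the C1q macrophages, with 37 and 6 cells in the sitagliptin-labelled library, were not compared.

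Of the 62 genes tested in 6 lists of the wider pathway, 2 were 2-fold apart in keratinocytes (3.23%), beside 6.32% of all genes, and lists of this size give no result of their own from such counts. Of the IL-1 ligands, 0 of 10 genes tested were 2-fold apart, with Il1f9 (encoding IL-36 gamma) highest at a ratio of 1.56 (1.39 to 1.75) and Il33 lowest. Of receptors and decoys 0 of 7 passed, from Il18bp at 0.690 to Il1rap at 1.20. Inflammasome and processing genes gave 0 of 12, from Aim2 at 0.701 to Gsdma, a pore-forming gasdermin of skin, at 1.34, and signalling genes 0 of 14, from Tnfaip3 at 0.777 to Irak2 at 1.30. Among 8 NF-kB targets tested, 1 was higher and 1 lower by 2-fold, beside 3.38% and 2.94% of all genes: the acute-phase gene Saa3 was higher at 0.161 and 0.759 CPM (ratio 4.71, 2.15 to 12.2) the siderophore-binding Lcn2 had a ratio of 0.540 (0.438 to 0.666), and the chemokine gene Cxcl2 was lower at 0.853 and 0.220 CPM (ratio 0.259, 0.139 to 0.466). Of 11 genes of CSF1R, TSLP and other cytokine axes 0 passed, from Csf1r at 0.503 (0.383 to 0.661) to Il7r at 1.12 (0.703 to 1.82), with Ptprz1 at 0.584. The median log2 ratios of the 6 lists ran from -0.30 to 0.21. By contrast, 8 of 11 genes of macrophages and fibroblasts, listed to follow free RNA, were at least 2-fold lower in keratinocytes of the sitagliptin-labelled library (2.94% of all genes).

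Genes with the most similar pattern were taken from 12261 genes over 26 levels (a class in 1 library with at least 50 cells), by Pearson's r of log2(CPM + 1). The levels share cells of the same 2 libraries, so r is a description. Il1b was closest to the MHC class II gene H2-DMb2 (r = 0.948) and to Ciita (0.867). Il34 was closest to Ly6d (0.924) and Il1rn to Klk11 (0.909) and Klf5 (0.897). Csf1 was closest to AW551984 (0.865) and the fibroblast gene Pdgfra (0.862), Il1r2 to Thbs2 (0.862), Il18 to Erp44 (0.834), Il33 to Kif4 (0.812) and Tslp to Ccnb1ip1 (0.751). Il1a had too few UMIs for this comparison.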

How the data were processed

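Skin cells of 2 samples, 1 per treatment, were profiled by droplet single-cell RNA sequencing, and samples were grouped by their labelled treatment. UMI counts per gene and barcode were used as the authors deposited them. Cell Ranger 3.1.0 and mm10 are named, per the submitters' processing notes, and the strand setting is not stated there. A barcode was retained from 500 genes and 1000 UMIs upwards, unless mitochondrial genes gave over 10% of its UMIs, leaving 57160088 and 85056939 UMIs in the PBS-labelled and sitagliptin-labelled library. Scrublet, run in scanpy 1.11.5, marked 2 and 0 cells, so it was taken not to have worked and doublets were kept. Both libraries were clustered together on 2000 variable genes, without the 4 members among them, with 30 principal components, 15 neighbours and Leiden resolution 1 (leidenalg 0.10.2). Clusters were named from 19 marker lists. At least 3 markers had to be found in 20% of cells and the second score had to be at most 0.6 of the first, thresholds set after seeing the data.

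Counts were summed per class and library. Exact Poisson intervals for levels, exact conditional binomial intervals for ratios and Clopper-Pearson intervals for shares came from scipy 1.17.1. Comparisons needed 50 cells of a class per library, and cells were thinned to 1000 UMIs for shares, which left out no retained cell. The summing and interval code was tested on simulated data. All members were named. From the pathway lists, the highest and lowest ratio, genes 2-fold apart and the receptors were named. Like patterns were sought for members with at least 200 UMIs. The members and lists were chosen with earlier results of these data known. The alternatives for ratios were 12 other settings, and leaving out the cell with most UMIs of a member was added after seeing the data.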

Additional observations from a re-analysis of the deposited data

Results flagged for a closer look

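Il34 differed between keratinocyte classes in the direction of its ratio, sitagliptin-labelled over PBS-labelled. Upper follicle cells had 1.191, the outer root sheath or bulge 3.871 and suprabasal cells 0.936, with counting intervals that leave out 1 on opposite sides. With 1 library per treatment the difference was not tested. The suprabasal interval, 0.877 to 0.999, only just leaves out 1. After thinning each cell to 1000 UMIs that ratio was 1.18, but it stayed below 1 in 11 of the 12 alternative settings. Keratinocytes without a finer class were at 0.836 (0.747 to 0.938) and basal cells at 0.856 (0.730 to 1.001). Sebocytes were at 4.73 (1.57 to 19.1).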

How the results depend on the processing

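The number of members at least 2-fold apart changed in 11 alternative counts and stayed in the other 70. In all keratinocytes it was 1 in place of 0 with at most 5% mitochondrial UMIs and with clusters weighted equally. In basal cells it was 1 when cells needed 1000 genes and 2000 UMIs and with a 1.5-fold threshold, and in suprabasal cells 1 with clusters weighted equally and with the 1.5-fold threshold. In outer root sheath or bulge cells it was 4 in place of 2 without the 8% highest doublet scores, at Leiden resolution 0.5 and with the members kept among the clustering genes, 1 after thinning to 1000 UMIs and 5 at the 1.5-fold threshold. Of the values of single genes 646 stayed within counting error and 151 moved. The cause was not tested. Over 12 settings the Il33 ratio in all keratinocytes ran from 0.635 to 0.808, and Csf1 in basal cells from 0.498 to 0.786. Over the settings that gave a value, Il34 in outer root sheath or bulge cells ran from 2.35 to 4.35 and Il1rn there from 1.05 to 12.4, whereas Il18 in suprabasal cells ran from 0.716 to 1.36 and so crossed 1. The class with the highest level changed in some settings. For Il1a it was basal cells after thinning and with at most 5% mitochondrial UMIs. For Tslp it was endothelial cells after thinning and with separate clustering. It was dendritic cells with separate clustering for Il1b, suprabasal cells with equal weights for Il18 and sebocytes at resolution 0.5 for Il33. No paired analysis was possible because each treatment had 1 library.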
